A study of Homo sapiens with 4 samples.

Results

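F-box protein genes were examined as a family in the m6A peak lists of OE-19 cells. The members were the protein-coding genes of GENCODE 44 whose symbol is FBXO, FBXL or FBXW followed by a number and, where present, further letters, which gave 63 of 20033 protein-coding genes. They divide into 36 FBXO genes, 17 FBXL genes and 10 FBXW genes. OE-19 is an established cell line of adenocarcinoma of the esophagogastric junction (AEG), and the series holds 4 samples of it, 2 replicates of the m6A immunoprecipitation (IP) and 2 of the input RNA. The labels give no treatment, gene edit or time point for either group, and the cells of all samples were OE-19 cells kept in RPMI1640 medium with serum and antibiotics. The labels do not say whether the replicates came from separate cultures, while the study calls them biological replicates. Each IP replicate has its own list of peaks, which are stretches of RNA where fragments pulled down by the m6A antibody pile up, and no peak list of the input was analysed here. The lists give positions and enrichment and no expression, so neither the identity of the cells nor the abundance of a transcript could be read from them.

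F-box proteins are the exchangeable parts of SCF ubiquitin ligases. The F-box motif binds the adaptor SKP1, which sits on the scaffold CUL1 with the RING protein RBX1, while the rest of the F-box protein holds the substrate that is to be ubiquitinated. FBXW proteins hold substrates with WD40 repeats, FBXL proteins with leucine-rich repeats, and FBXO proteins carry other domains or none that is recognised. Many of the substrates are cell cycle regulators, and N6-methyladenosine in the mRNA of a ligase is one of several layers that can set how much of it is made.

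Short sequences are shown from the 6 F-box genes whose strongest pair of peaks had the highest geometric mean fold enrichment over both replicates. Each was cut around a GGAC, so all 6 hold the motif by construction, and it need not lie at the summit. Each line is 26 nt of hg38 on the strand of the gene, centred on the GGAC closest to the replicate 1 summit inside the stretch covered by both replicates, and the capitals mark that GGAC, the core of the m6A consensus.
FBXW7 (chr4:152411436-152411461, minus strand, CDS): gaggaggagatGGACcaggagagtga
FBXO33 (chr14:39401505-39401530, minus strand, CDS): cacaagtctctGGACaacatgccaaa
FBXO5 (chr6:152975536-152975561, minus strand, CDS): atgttcattccGGACttaaactggta
FBXO41 (chr2:73258760-73258785, minus strand, 3′ UTR): tacaggggcttGGACagaagctgccc
FBXO10 (chr9:37537615-37537640, minus strand, CDS): ctagagagccgGGACcaggcctggag
FBXL4 (chr6:98926673-98926698, minus strand, CDS): tcgaacttatgGGACatggtgggatc
The adenine of the FBXW7 motif lay 3 nt from the replicate 1 summit and 10 nt from the replicate 2 summit, closer than in the other 5 genes. The distances in replicates 1 and 2 were 41 and 56 nt for FBXO41 and 52 and 39 nt for FBXL4. They were 54 and 97 nt for FBXO10, 70 and 72 nt for FBXO33 and 192 and 126 nt for FBXO5. A GGAC thus did not mark every summit.

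An exonic peak, meaning a peak whose summit lies in an annotated exon, was found in 40 F-box genes in replicate 1 (63.5%, 95% Wilson confidence interval 51.1% to 74.3%) and in 34 in replicate 2 (54.0%, 41.8% to 65.7%). All 34 genes of replicate 2 were among the 40 of replicate 1. Across all protein-coding genes the shares were 42.4% in replicate 1, 34.1% in replicate 2 and 33.4% in both replicates. Intervals here and below cover counting error only. Those over peaks or summits count each one as independent, though 1 gene can hold several.

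Gene length matters for such a comparison, because a longer transcript offers more places for a peak. The median exonic length of the F-box genes was 5209 nt, against 4418 nt over all protein-coding genes. Protein-coding genes in the same of 20 exonic length bins had a peak in both replicates at a share of 38.2%, which corresponds to 24.04 of 63 genes where 34 were observed, a difference of 15.8 percentage points. The interval of the observed share, 41.8% to 65.7%, starts above 38.2%, but it covers counting error only and is not a test against the length bins. Expression was not measured in these files and could not be held constant, so its part in this difference was not tested. No p-value is given for the family, since its members were picked by name with earlier results of the same lists known.

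The observed shares of FBXO and FBXL were similar, and that of FBXW was lower, from few genes. A peak in both replicates was found for 20 of 36 FBXO genes (55.6%, 39.6% to 70.5%) where the length bins gave 38.5%, and for 10 of 17 FBXL genes (58.8%, 36.0% to 78.4%) where they gave 37.9%. It was found for 4 of 10 FBXW genes (40.0%, 16.8% to 68.7%), near the 37.3% of their length bins. With 10 genes the FBXW interval also covers the shares of the other subfamilies, so a difference between subfamilies was not detectable.

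With a fold enrichment of 5 or more required in both replicates, 28 F-box genes (44.4%, 32.8% to 56.7%) remained. The shares were 19.3% of all protein-coding genes and 22.3% in the length bins. A gene counted when each list held such a peak, which need not be the same peak. FBXO34 counted in this way, though its pairs had 4.16 and 6.69, and 5.99 and 4.48. Fold enrichment is the peak caller's ratio of the pulled-down signal at the summit to its local background, as the authors deposited it. By this stricter measure 16 of 36 FBXO genes (44.4%, 29.5% to 60.4%) had a peak in both lists, where the length bins gave 22.6%. So did 9 of 17 FBXL genes (52.9%, 30.96% to 73.8%), where they gave 21.7%. For FBXW it was 3 of 10 genes (30%, 10.8% to 60.3%), where they gave 22.4%. The FBXW interval again covers the shares of the other subfamilies.

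**Figure D1:**
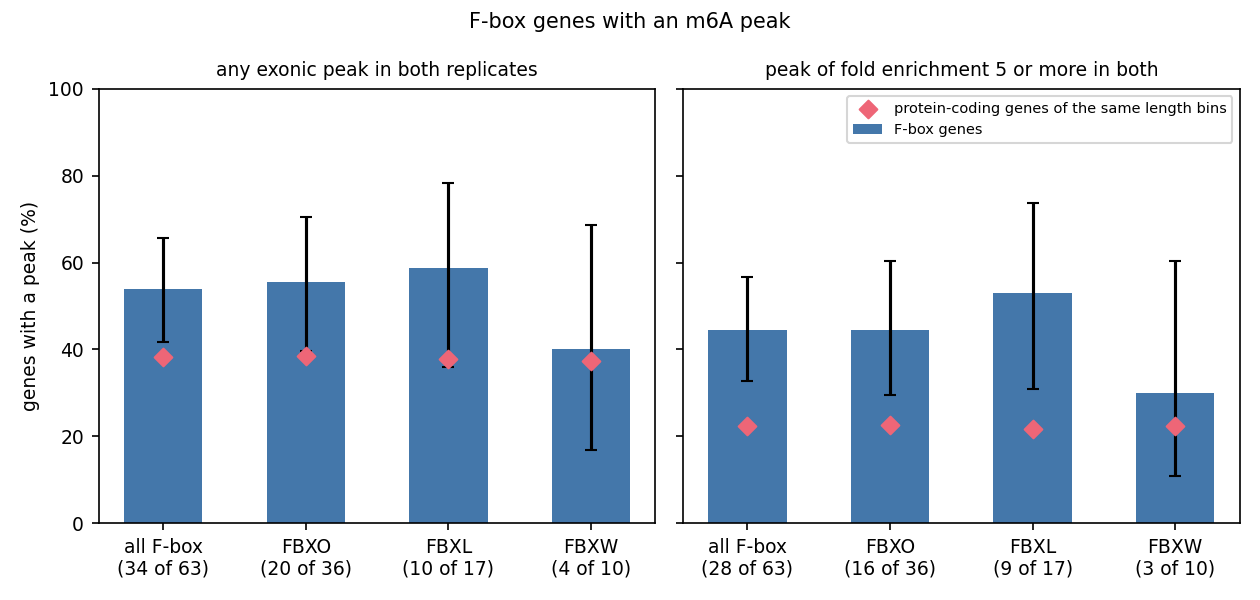
Share of F-box genes with an m6A peak in both replicates (y axis, percent of genes) for the whole family and each subfamily, for any exonic peak (left) and for peaks of fold enrichment 5 or more (right). Bars are observed shares with 95% Wilson intervals, and diamonds are the share among protein-coding genes of the same exonic length bins. The bars of the whole family (54.0% and 44.4%) stand above their diamonds (38.2% and 22.3%), and the FBXW bar on the left (40.0%) is near its diamond (37.3%).

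Of the remaining 29 genes, 6 had a peak in replicate 1 alone and none in replicate 2 alone. FBXW4 had a best fold enrichment of 5.18, with its summit near the stop codon. FBXL16 had 2 peaks in the CDS, with a fold enrichment of 5.26 and 3.36. FBXO8 had 1 peak of 4.81 in the 5′ UTR, and FBXO9 had 1 peak of 2.62. The peaks of FBXL6 (best fold enrichment 2.99) and of FBXO6 (3.36), which recognises N-glycans on misfolded glycoproteins, lie in exons of SLC52A2 and MAD2L2 as well, so the gene is uncertain. Of these 6 genes, FBXW4 and FBXL16 thus had a peak above 5-fold that lies in no other gene, near the median of all exonic peaks in replicate 1, which is given below.

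No exonic peak in either list was found for 23 genes. They were FBXL2, FBXL7, FBXL13, FBXL17, FBXL20, FBXO4, FBXO7, FBXO15, FBXO17, FBXO24, FBXO25, FBXO27, FBXO32, FBXO36, FBXO39, FBXO40, FBXO43, FBXO47, FBXW8, FBXW9, FBXW10, FBXW11 and FBXW12. Among them are FBXW11, a βTrCP ligase that degrades phosphorylated β-catenin and IκB, FBXO32, the muscle atrophy ligase known as atrogin-1, FBXO7, a gene of early-onset parkinsonism, and FBXO43, an inhibitor of the anaphase-promoting complex in meiosis. Without read numbers, a transcript that was not methylated cannot be told apart from one that was too scarce for a peak.

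In what follows, values of a peak given as a pair are its fold enrichment in replicate 1 and then in replicate 2. FBXW7 had the strongest F-box peak in both lists. It encodes the receptor that marks cyclin E, MYC, JUN and NOTCH for degradation and is a frequently mutated tumor suppressor. The peak lies in exon 2 of 12 of its longest-CDS transcript (chr4:152411225-152411831 in replicate 1 and chr4:152411298-152411796 in replicate 2), around the first sequence shown above. The values were 22.2-fold in replicate 1 and 17.01-fold in replicate 2. The summits lay 1769 and 1776 nt upstream of the stop codon, 7 nt apart. The geometric mean of 19.5 stood at percentile 99.8 of the 10855 pairs of exonic peaks in protein-coding genes.

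FBXW7 carried 6 exonic peaks in replicate 1 and 5 in replicate 2, spread from the 5′ UTR to the stop codon. At the stop codon the values were 6.04 and 12.4, a log2 ratio of −1.03, the lowest of all F-box pairs. In exon 4 it was 6.14 and 4.37. The 5′ UTR peaks went from 3.89 to 6.17 in replicate 1 and were 5.95 and 2.04 in replicate 2. One of them, with 6.17 against 2.04, had a log2 ratio of 1.60. The same transcript thus held both one of the highest and the lowest ratio between the replicates. The replicate 2 peak behind the high ratio was near the calling cut-off of q 0.05, with a −log10 q of 1.51.

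The other FBXW genes with a peak in both lists were weaker. FBXW2 had its best peak at the stop codon, at 7.67 in replicate 1 and 7.55 in replicate 2, and a further peak in exon 3 of 8, at 6.69 and 7.11. Another pair (5.21 and 6.67) lies in an exon of B3GALT9 as well. The first 2 pairs differed little between the replicates. FBXW5 had 3 peaks in replicate 1 and 2 in replicate 2, none above 2.72, the lowest best value of the 34 genes. FBXW10B had its peaks in the last exon, the best with 9.74 in replicate 1 and 8.54 in replicate 2. FBXW10B and FBXW10 are close copies on chromosome 17, so reads could be split or swapped between them and the assignment to FBXW10B is uncertain.

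Among FBXO genes, FBXO33 and FBXO5 had the pairs with the highest geometric mean of both replicates, and both lay in the CDS of an internal exon. In FBXO33 the single peak in exon 3 of 4 (chr14:39401400-39401843 in replicate 1) was 19.6-fold enriched in replicate 1 and 10.3-fold in replicate 2, with summits 681 and 683 nt upstream of the stop codon. FBXO5, also known as EMI1, inhibits the anaphase-promoting complex and so guards the entry into S phase and mitosis. Its best peak, in exon 2 of 5 (chr6:152974893-152975621 in replicate 1), had 16.1 in replicate 1 and 10.04 in replicate 2, and a second peak in exon 1 had 5.97 and 7.84. The 2 summits of the best peak were 66 nt apart.

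FBXO10, a ligase for the survival protein BCL2, carried 5 peaks in replicate 1 and 4 in replicate 2. The best, in exon 3 of 11, had 16.4 in replicate 1 and 8.49 in replicate 2. The peak in exon 2 had 12.9 and 3.12, the highest log2 ratio of all F-box pairs at 2.05. The summits in both of these exons also lie in exons of the gene ENSG00000256966, annotated as a readthrough gene, while the stop codon peak of FBXO10 (8.81 and 4.49) is in no other gene. FBXO10 thus held the pair whose replicates differed most, at summits that cannot be assigned to it alone.

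FBXO31, which targets cyclin D1, had 6 peaks in replicate 1 and 3 in replicate 2. Its best was a wide peak in the 3′ UTR (chr16:87329385-87331591 in replicate 1), with 14.8 in replicate 1 and 7.06 in replicate 2. The summits lay 391 and 394 nt downstream of the first base of the stop codon, 3 nt apart. FBXO42, a ligase reported to act on p53, had 1 peak in each list, with 14.5 in replicate 1 and 6.96 in replicate 2. Its summit lay in the last exon, 146 nt upstream of the stop codon in replicate 1 and 357 nt in replicate 2.

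In FBXO38, which mediates turnover of PD-1, a receptor on T cells, and in FBXO41 the replicates were close or replicate 2 was the higher. FBXO38 had 1 peak in each list, in exon 15 of 22, with 11.2 in both. FBXO41 had 11.04 in replicate 1 and 13.5 in replicate 2 downstream of the stop codon, within the last exon. FBXO48 followed with 9.63 and 9.06, in the CDS, also from a single peak. Each of these pairs differed by less than the median gap of the family given below.

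Further down the FBXO list, FBXO30 had 15.04 in replicate 1, and the wide peak was split into 2 peaks in replicate 2, with 5.60 and 3.27. FBXO46 had 9.59 and 6.99 in a wide CDS peak of its last exon. FBXO45, a partner of the ligase MYCBP2 in neurons, had peaks in each of its last 2 exons. The one in exon 2 had 9.98 in replicate 1 and 3.81 in replicate 2, while the one at the stop codon had 6.32 and 9.23, so the order of the 2 peaks was opposite in the 2 lists. FBXO34 also had a peak that was higher in replicate 2, with 4.16 and 6.69, downstream of its stop codon.

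FBXO11, which targets BCL6, had one peak near the end of the transcript with 9.71 and 5.60, in sequence that is exonic in MSH6 as well. FBXO28 had 1 peak in each list upstream of the stop codon, with 4.68 and 4.17 and summits 193 and 192 nt away from it. FBXO21 had a peak with 5.49 and 4.16 downstream of the stop codon, and 3 further peaks in replicate 1 alone. FBXO22 had 5.59 and 5.62 in its long last exon. FBXO2, which recognises N-glycans like FBXO6, had peaks of 3.33 and 2.23 in exon 2, among the weakest of the family. FBXO3 had 8.35 and 5.37 and FBXO44 had 3.80 and 3.26, all in exons outside their longest-CDS transcripts. The FBXO16 peak of 9.03 and 7.15 lies in an exon of ZNF395 as well and cannot be assigned to either gene.

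Among FBXL genes, FBXL4 and FBXL19 had the pairs with the highest geometric mean. FBXL4, a mitochondrial protein that restrains mitophagy and underlies a mitochondrial DNA depletion syndrome, had 1 peak in each list, in exon 4 of 10 (chr6:98926516-98926890 in replicate 1), with 9.49 in replicate 1 and 14.3 in replicate 2. FBXL19, a CpG island binding protein, carried 7 peaks in replicate 1, the most of the family, and 5 in replicate 2, as many as FBXL18 and FBXW7. The best lay in the 3′ UTR, with 15.6 and 8.46, and the one at the stop codon had 8.31 and 3.93. In both lists the 3′ UTR peak of FBXL19 was thus higher than its stop codon peak.

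FBXL5, the iron sensor that degrades IRP2 when iron is abundant, had 12.1 in replicate 1 and 9.48 in replicate 2 in exon 9 of 11 (chr4:15625298-15625697 in replicate 1). Its summits lay 435 and 474 nt upstream of the stop codon.

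FBXL14, a ligase for SNAI1, had 14.8 and 5.31 in a wide peak over its large exon 1. FBXL8 had 12.1 and 4.28, with the replicate 2 summit also in an exon of ENSG00000265690, and FBXL15 had 11.8 and 5.69 at the stop codon. FBXL12 had 10.5 and 6.25 downstream of the stop codon. In each of these 4 genes replicate 1 was the higher. FBXL18 had 5 peaks in each list, the best with 7.79 in replicate 1 and 5.42 in replicate 2 and its summits 463 and 58 nt downstream of the first base of the stop codon. Both FBXL22 pairs (6.40 and 4.37, and 5.02 and 5.14) lie in exons of USP3-AS1 as well, outside the longest-CDS transcript of FBXL22, so the gene they belong to is uncertain.

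**Figure D2:**
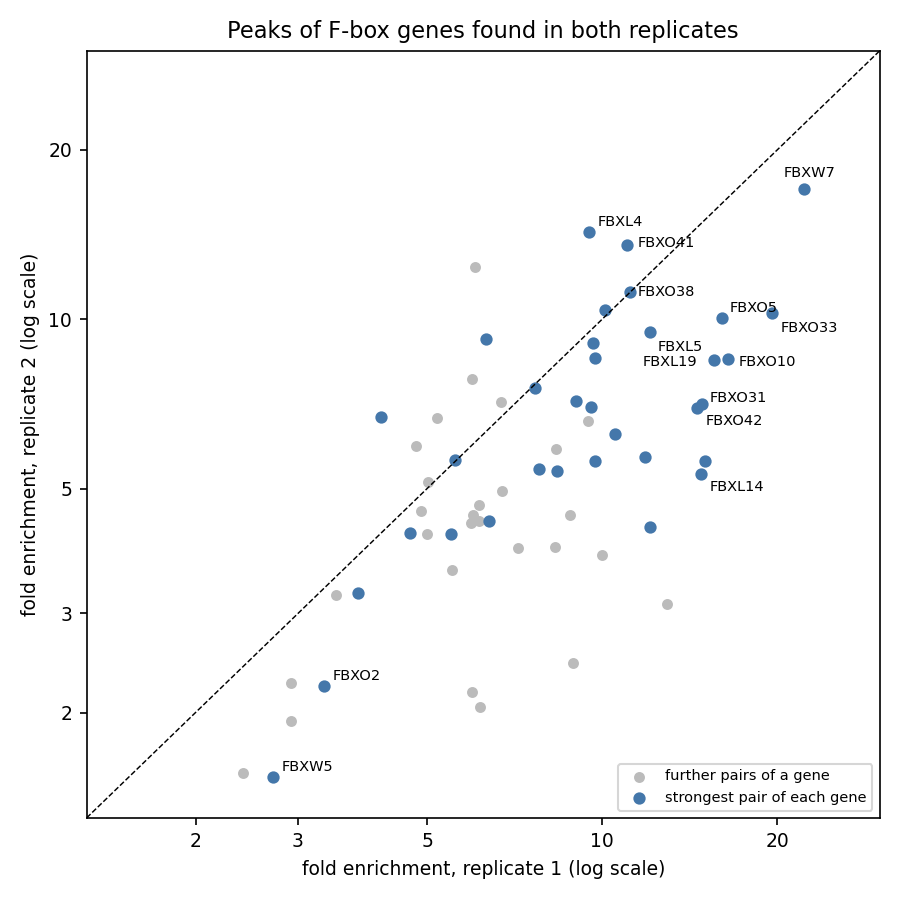
Fold enrichment of the 62 F-box peak pairs in replicate 1 (x axis, log scale) and replicate 2 (y axis, log scale), with the strongest pair of each gene in blue, further pairs in grey and the line of equality dashed. FBXW7 is at the upper right with 22.2 and 17.01, FBXL4 lies above the line with 9.49 and 14.3, and 49 of the 62 pairs lie below it.

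The replicates were then compared over the family. In replicate 1 the 99 F-box peaks had a median fold enrichment of 5.56 (quartiles 3.64 and 8.97), beside 5.21 over the 18488 exonic peaks in protein-coding genes. In replicate 2 the 68 F-box peaks had a median of 5.23 (quartiles 3.90 and 7.12), beside 4.72 over 12003. Each F-box peak was paired with the peak of the other list that it overlapped most, where the choice was mutual. Over the resulting 62 pairs, the median log2 ratio of replicate 1 over replicate 2 was 0.47 (quartiles 0.10 and 0.88), and replicate 1 was higher in 79.0% of them. Over all 10855 pairs in protein-coding genes the median was 0.44 and the share 80.6%, so F-box pairs moved between the lists like the rest. The largest log2 ratios belonged to FBXO10 (2.05), FBXW10B (1.86) and FBXW7 (1.60), and the lowest to FBXW7 (−1.03), FBXO34 (−0.69) and FBXL4 (−0.59). That FBXW10B pair had 8.91 and 2.45, and its replicate 2 peak was also near the cut-off, with a −log10 q of 1.36. Between the lists, Pearson's r of the log2 values was 0.657 and Spearman's rho 0.588 over the 62 pairs, which share libraries and genes, so these describe the pairs and carry no p-value.

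Of the replicate 2 peaks, 67 of 68 overlapped a replicate 1 peak by at least 1 bp (98.5%, 92.1% to 99.7%), beside 95.9% over protein-coding genes. The exception was a peak of 2.81 in exon 2 of FBXL18. Of the replicate 1 peaks, 64 of 99 were found in replicate 2 (64.6%, 54.8% to 73.4%), beside 60.6%. The 35 peaks of replicate 1 alone had a median fold enrichment of 3.46, and its 64 shared peaks had 7.43. The summits of a pair lay a median of 23.5 bp apart, and 43 of the 62 pairs (69.4%) were within 50 bp.

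Next, the position of the summits in the transcript was examined on the transcript with the longest CDS of each gene, which held 87 F-box summits in replicate 1 and 60 in replicate 2. Another 13 and 8 fell in exons outside that transcript. The stop codon window, which reached 200 nt in either direction, held 22.99% of the replicate 1 summits (15.4% to 32.9%), where its share of the length of these transcripts was 11.2%. In replicate 2 it held 26.7% (17.1% to 39.0%), where its share of the length was 10.9%. Over all protein-coding genes the window held 24.5% and 27.1% of summits.

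The CDS outside the window held 52.9% of F-box summits in replicate 1 (42.5% to 63.02%) and 55% in replicate 2 (42.5% to 66.9%), against 38.8% and 38.6% of the length. Both intervals start above the share of the length and cover the 48.6% and 47.5% of all protein-coding genes. The rest of the 3′ UTR made up 43.6% of F-box transcript length for both lists and held 16.1% (9.83% to 25.2%) and 15% (8.10% to 26.1%) of summits, beside 18.02% and 19.7% over all protein-coding genes. The 5′ UTR held 7 summits in replicate 1 (8.05%) and 2 in replicate 2 (3.33%), both from FBXW7 in replicate 2.

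**Figure D3:**
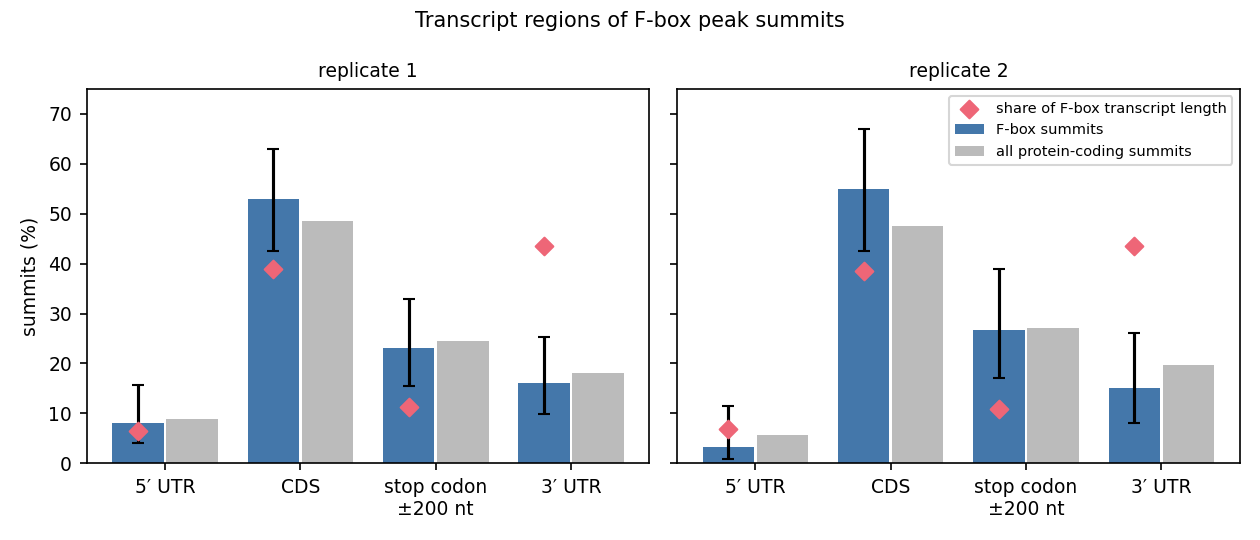
Share of summits (y axis, percent) in each transcript region for F-box genes (blue, with 95% Wilson intervals) and all protein-coding genes (grey), in replicate 1 (left) and replicate 2 (right), with diamonds for the share of F-box transcript length. The stop codon bars of 22.99% and 26.7% stand above their diamonds of 11.2% and 10.9%, and the 3′ UTR bars of 16.1% and 15% stand below theirs.

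**Figure D4:**
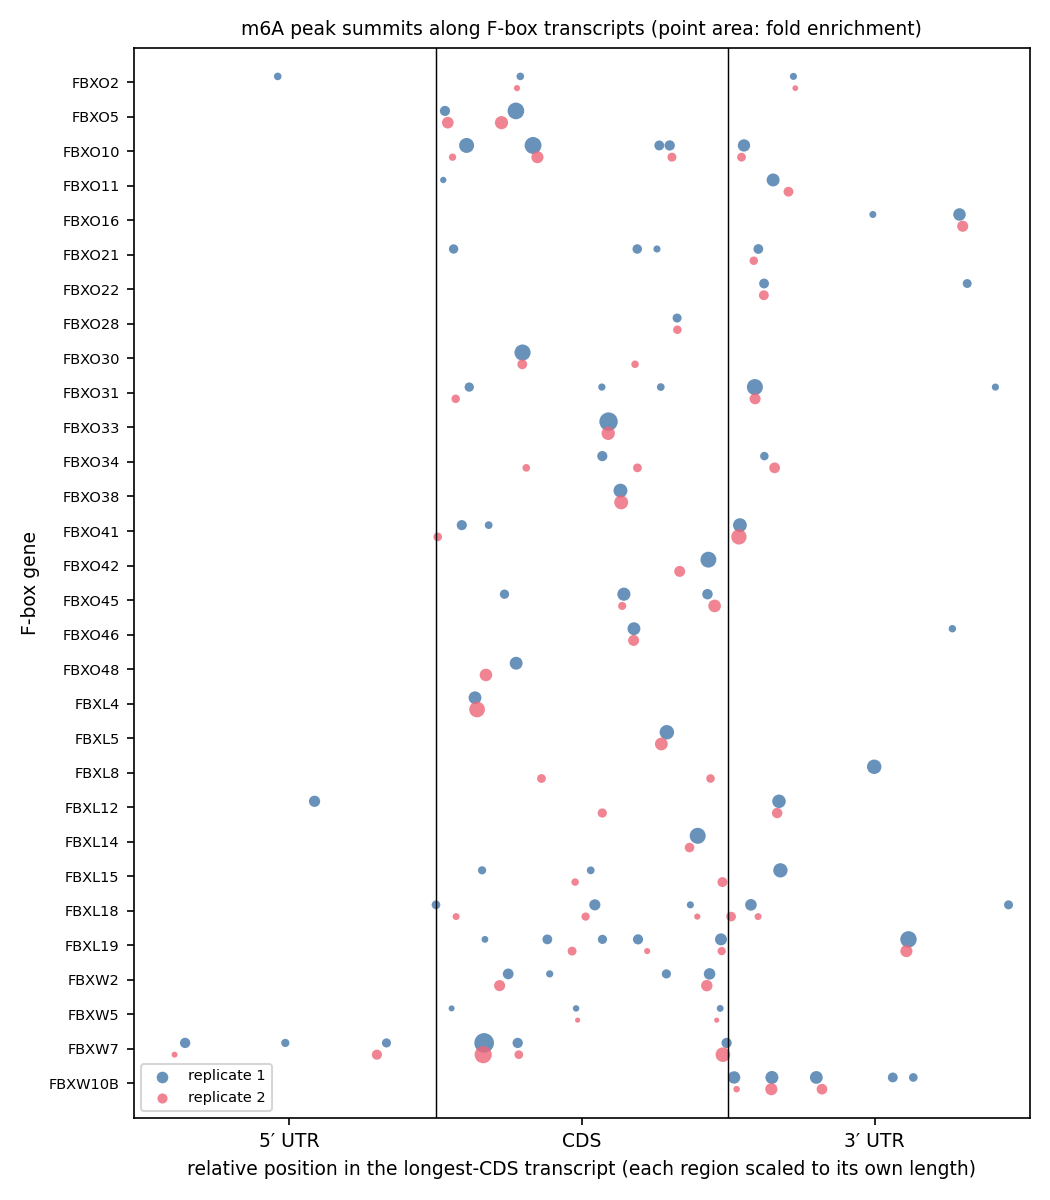
Position of each F-box summit along the longest-CDS transcript (x axis, with each region scaled to its own length) for 30 of the genes with a pair of peaks and a summit on that transcript (y axis). Blue points are replicate 1, red points are replicate 2, and point area is proportional to fold enrichment. Strong peaks of FBXW7, FBXO5, FBXO10, FBXO33, FBXL4 and FBXL5 lie inside the CDS in both replicates, and those of FBXO31, FBXO41 and FBXL19 lie in the 3′ UTR.

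The summits inside internal exons sat in long exons, a comparison made after the positions had been seen. In replicate 1, 39 summits lay in an internal exon, in 22 genes, and those exons had a median length of 421 nt, where all 146 internal exons of the same transcripts had a median of 158 nt. In replicate 2, 27 summits lay in internal exons with a median of 584 nt, where all 110 had 163 nt. Where a transcript had more than 1 internal exon, 22 of 37 summits in replicate 1 (59.5%) and 18 of 24 in replicate 2 (75%) were in the longest one. Examples are FBXO5 exon 2 with 715 nt, FBXO38 exon 15 with 735 nt, FBXL5 exon 9 with 726 nt and FBXW7 exon 2 with 570 nt. All protein-coding genes had shares of 51.9% and 68.5% by the same count. Their median lengths were 419 nt against 134 nt in replicate 1 and 683 nt against 137 nt in replicate 2. The pattern was thus not particular to F-box genes. A longer exon also offers more positions for a summit, and the part of this was not tested.

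The GGAC motif was searched in the sense direction of each gene, up to 50 nt from the summit. It was present at 54.0% of 100 F-box summits in replicate 1 (44.3% to 63.4%, with 1 peak counted for both FBXO2 and FBXO44) and at 55.9% of 68 in replicate 2 (44.1% to 67.1%). Windows of the same length, centred on exonic bases of the same genes outside every peak, held it at 29.3% and 28.1%. These are differences of 24.7 and 27.8 percentage points. All windows were cut from the genome, so they can reach into introns, and the control windows can also reach into peaks. The summits of all protein-coding genes held it at 49.7% and 51.7%, with differences of 21.3 and 24.4 points from their own exons. In the stretch covered by both peaks of the strongest pair, 32 of the 34 genes had at least 1 GGAC, and FBXO30 and FBXL22 had none. On the other strand, 21 of the 34 had at least 1. Those stretches held 151 GGAC on the strand of the gene and 68 on the other strand over 19979 bp. They ran up to 2310 bp, and the matching share over all protein-coding genes is not given here. The 32 of 34 is thus a description and not a result particular to the family.

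Lists of related genes were set beside the family. Of 9 protein-coding F-box genes that carry other symbols, 6 (66.7%) had a peak in both replicates, where their length bins gave 42.0%. In the following paragraphs on related genes, the values are the best fold enrichment of the gene in each list, taken separately, and need not belong to the same peak. BTRC, the other βTrCP gene beside FBXW11, had the highest values among these 6, with 14.5 in replicate 1 and 10.8 in replicate 2. KDM2B, an F-box histone demethylase, had 9.33 and 7.48, with a summit also in an exon of RNF34, and CCNF, the cyclin F gene, had 6.38 and 5.84. SKP2, which targets the inhibitor p27, had a peak of 15.2 in replicate 2 alone, at a summit also in an exon of NADK2.

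Of 30 SCF core and regulator genes, 11 (36.7%) had a peak in both replicates, where their length bins gave 36.0%. The scaffold CUL1 had 7.72 and 7.27, and its exchange factor CAND1 had 7.14 and 3.58. SKP1 and RBX1, the other core subunits, had no exonic peak in either list. The highest values were those of SENP8, the NEDD8 protease, with 19.6 and 14.6. The DCUN1D genes encode NEDD8 ligase cofactors, and DCUN1D2 had 13.6 and 10.3 while DCUN1D3 had 15.6 and 5.85. Of the 8 COP9 signalosome genes named COPS, COPS2 had a peak in both lists, with 8.32 and 3.28, and COPS7B had one in replicate 1 alone.

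Of 25 genes whose proteins are known substrates of F-box ligases, 16 (64.0%) had a peak in both replicates, where their length bins gave 38.7%, and 23 had one in replicate 1 (92%), where they gave 48.2%. The FBXL5 substrate IREB2 had 7.21 and 10.3. REST, a βTrCP substrate, had 11.7 and 9.83, and RRM2, a cyclin F substrate, had 9.89 and 8.05. The FBXW7 substrate CCNE1 had 4.56 in replicate 1 alone. The list was written with earlier results for some of its genes known, CDC25A and MYC among them, so its share is a description.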

How the data were processed

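The labels gave 2 m6A IP samples and 2 input samples, and the IP peak lists were analysed. Per the study's methods, the reads were mapped to hg38 with TopHat2 and peaks were called with MACS2, both with default settings, whereas the tools named in the submitters' processing notes are fastp, HISAT2 and MACS2, with no versions. Per the labels, cells were UV-fixed before lysis, which the methods do not describe. Use of the input as control is not given in the sources used here. The deposited lists hold, per peak, fold enrichment (a ratio to the caller's background), −log10 p and −log10 q, a score equal to 10 times −log10 q, which was not used, and the summit offset. No peak exceeded a q of 0.0491 (replicate 1) or 0.0497 (replicate 2). Read numbers are not in these files, so depth is unknown, and precision is limited by how many peaks were called.

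A summit counted for every protein-coding gene of GENCODE 44 with an exon there, since the lists carry no strand. In replicate 1, 22 of 99 F-box peaks (22.2%) and in replicate 2, 10 of 68 (14.7%) also lay in an exon of another gene. Expected shares are exact averages over length bins or transcript lengths, with no draws. The members and gene lists were chosen with earlier results of these data known. The named-gene rule allowed every member, with full values for the 20 strongest pairs, genes seen in 1 list, the genes with most peaks, the most extreme ratios and 8 fixed genes. Code was tested on simulated data. Python 3.11.15, numpy 2.4.6, pandas 2.3.3, scipy 1.17.1 and matplotlib 3.10.9 were used. The values of 1 member are not reported here, though the counts include it.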

Additional observations from a re-analysis of the deposited data

Results flagged for a closer look

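Some peaks had their summit in an intron of an F-box gene, outside every annotated exon, and were not used in the comparisons of exonic peaks. Replicate 1 had 9 such peaks in 7 genes and replicate 2 had 5 in 5 genes. No input list was analysed and the share over all protein-coding genes was not computed, so the counts say nothing particular to F-box genes. A peak in an intron of FBXL18 was found in both lists, with a fold enrichment of 8.63 and 7.48. FBXW8, which had no exonic peak, had a shared intronic peak with 6.11 and 4.71 and another in replicate 1 alone with 8.63. A replicate 2 peak of FBXW2 with 6.54 has its summit in an intron but reaches into exon 7, where it overlaps a replicate 1 peak. Of these peaks, 2 in replicate 1 and 3 in replicate 2 overlapped a peak of the other list.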

How the results depend on the processing

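The number of F-box genes with a peak in both replicates went from 28 to 34 over the other thresholds and exon rules, and with either replicate left out it was 34 to 40. The difference from the length bins stayed positive, from 13.2 points with summits on the longest-CDS transcript to 22.2 points for peaks at least 5-fold enriched, and with a replicate left out it was 15.1 to 15.5. Without the 4 genes seen only at summits in another gene and without FBXW10B, 31 of 58 genes had a peak in both lists, a difference of 14.7 points. This choice was made after seeing the data, and it kept FBXO11, whose single replicate 2 peak lies in MSH6 too. With all summits in exons of more than 1 gene left out, 31 of the 63 genes had a peak in both lists, a difference of 14.8 points. Sharing went to 54.5% in replicate 1 and 77.9% in replicate 2, both with an overlap of 50% of both peaks and with summits within 100 bp, and to 100% in replicate 2 at q of 1e-05 or less. The stop codon share was 11.5% in replicate 1 with a window of 100 nt and 40.0% in replicate 2 with one of 400 nt, against 5.68% and 21.1% of the length. The median fold enrichment over the strongest peak of each gene was 9.61 in replicate 1 and 6.97 in replicate 2, and over shared peaks it was 7.43 in replicate 1. GGAC was present at 30% and 29.4% of summits within 25 nt and at 76.0% and 82.4% within 100 nt. Windows centred on exonic bases outside peaks gave 16.3%, 15.6%, 47.5% and 45.8%. These shares move with the window by construction. Of 93 values under alternatives, 79 stayed within the interval, replicate spread or factor of 1.5 set for them, and 0 reversed. Leaving a replicate out of the shares and medians leaves the other list's value, given above. No paired analysis was possible because no input list was analysed and no test between groups was made.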
